A study of Mus musculus with 8 samples.

Results

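The RNA of 9 integrin subunits was followed in sorted mature CD8SP thymocytes of Ndrg3ctrl and Ndrg3TKO mice. These subunits (Itgae, Itgb7, Itgal, Itgb2, Itga4, Itgb1, Itga6, Itgav and Itgb3) were chosen by name, as chains with known roles on T cells and thymocytes. They are 9 of 27 integrin subunit genes and of 47937 genes in the counts table, and all 9 had enough reads to be tested. The sequencing was done to find genes whose expression differs between control and knockout cells before they leave the thymus. Total RNA of CD8SP TCRβ+MHC1high cells from thymus was sequenced in 4 libraries per group, each a biological replicate. The Ndrg3ctrl mice were Ndrg3 +/fl;Lck-cre+ and the Ndrg3TKO mice Ndrg3 fl/fl;Lck-cre+, all 6 to 7 weeks old, so both groups carry the Cre transgene and the controls also carry 1 floxed allele. Cre was driven by the proximal Lck promoter, which acts from early thymocytes onward, and the comparison is therefore between a heterozygous and a homozygous deletion in T lineage cells.

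Integrins are cell surface receptors made of an alpha and a beta chain, and each chain reaches the surface only with a partner. On T cells they rest in a bent, low-affinity form until signals from the T cell receptor or chemokine receptors, carried by the small GTPase Rap1 to talin and kindlin at the beta chain tail, switch them to a form that grips ligands on other cells and matrix. In the thymus they hold thymocytes to stromal cells, and in mature cells LFA-1 (Itgal with Itgb2), VLA-4 (Itga4 with Itgb1), LPAM-1 (Itga4 with Itgb7) and the E-cadherin receptor CD103 (Itgae with Itgb7) serve entry into lymph nodes, gut and epithelium. The protein of Itga4, CD49d, is also used to tell virtual memory from true memory CD8+ T cells.

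The libraries held 21126698 to 32668081 counts, of which the 9 subunits together took 0.354 to 0.397%. Values below are normalized counts: each count was scaled by its library's TMM effective size and expressed for a library of average total. Ndrg3, the targeted gene, lay at 2294, 2359, 2349 and 2342 normalized counts in Ndrg3ctrl replicates 1 to 4 and at 1460, 1402, 1537 and 1601 in Ndrg3TKO, a log2 fold change of −0.64 (adjusted p = 1.04e-05, edgeR quasi-likelihood test). All exons were counted, the floxed one included, so RNA without that exon still contributes. The 11 markers of CD8SP T cells, Cd8a, Cd3e, B2m and H2-K1 among them, had log2 fold changes of −0.13 to 0.11, with adjusted p-values of 0.509 to 0.999 (edgeR) and overlapping groups, while Cd4 was near 0 in both groups, with means of 19.3 and 16.3 normalized counts. Counts of 4 Y-linked genes were present in Ndrg3ctrl replicate 2 and in Ndrg3TKO replicates 2 and 3, and at most 2 reads in the other libraries, so the groups held 1 of 4 and 2 of 4 such libraries.

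Between the groups, RNA of the integrin subunits differed little. None of the 9 passed an adjusted p of 0.05 by edgeR's quasi-likelihood test without covariates, against 1.15% of the 14633 genes tested. With DESeq2 1 of the 9, Itga4, passed, against 1.93% of 16037 genes. With the replicate number added to the edgeR model as a block, 3 of 9 passed, Itga4, Itgb1 and Itgb3, against 5.47%. No label says what the replicate numbers mark, and the values below are without this block unless it is named. Unadjusted p-values under 0.05 were found for 3 of 9, Itga4, Itgav and Itgb3, against a background of 10.9%. In 1 of 9, Itga4, the 4 Ndrg3TKO libraries lay on one side of the 4 Ndrg3ctrl libraries, against 7.04% of all tested genes; 1 of 9 lay higher, against 3.44%, and 0 lower, against 3.59%. The median log2 fold change of the 9 was −0.03, beside −0.0033 over all tested genes, and 4 of 9 were above 0. The normalized counts by library show the 4 most abundant RNAs at nearly equal means in both groups, with larger gaps in Itga4 and Itgb3. In bulk RNA, fewer cells that carry an integrin and less of its RNA per cell cannot be told apart.

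**Figure D1:**
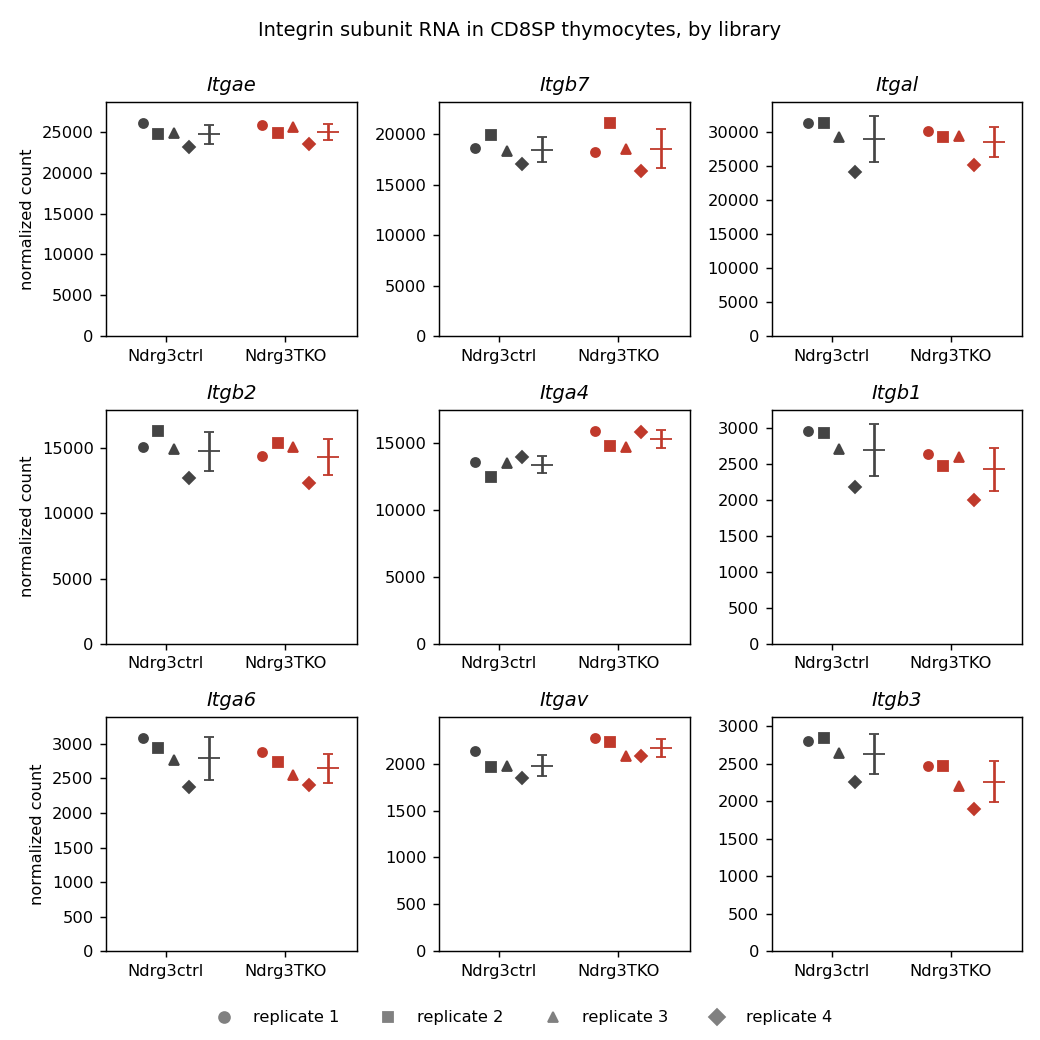
Normalized count (vertical axes, from 0) of each integrin subunit in 4 Ndrg3ctrl and 4 Ndrg3TKO libraries, with a marker shape for each replicate number, and the mean with SD beside the points. Itga4 is the only subunit in which the groups do not overlap, with 12498 to 13938 in Ndrg3ctrl and 14699 to 15936 in Ndrg3TKO, and replicate 4 is the lowest Ndrg3ctrl library in 8 of 9 panels.

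The same replicate number stood low in most subunits. Ndrg3ctrl replicate 4 was the lowest of its group in 8 of 9 subunits and the highest in the other, Itga4. Ndrg3TKO replicate 4 was the lowest in 7 of 9, and Ndrg3TKO replicate 3 in 2 of 9. Without replicate 4 of both groups, 0 of 9 subunits passed the threshold in edgeR, and the log2 fold changes of Itgb1, Itga6 and Itgb3 were −0.16, −0.11 and −0.21. Leaving out replicate 4 of a single group moved them more. Without that of Ndrg3ctrl they were −0.24, −0.15 and −0.29, and without that of Ndrg3TKO −0.07, −0.03 and −0.15.

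The genes encoding the chains of the E-cadherin receptor were among the most abundant RNAs of these cells. Itgae (ENSMUSG00000005947.11, chromosome 11, 73090583 to 73147446 of GRCm38, + strand) encodes the alpha E chain, by which T cells are held at epithelia. Its normalized counts were 26086, 24730, 24918 and 23218 in Ndrg3ctrl replicates 1 to 4 and 25798, 24862, 25622 and 23588 in Ndrg3TKO. The groups overlapped throughout, and their means of 24738 ± 1178 and 24967 ± 1005 (SD, n = 4) differed by less than either SD. The log2 fold change was 0.01 with an SE of 0.0608 (adjusted p = 0.961, edgeR), and its 95% interval corresponds to a change between −7.78% and 10.5%.

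Itgb7 (ENSMUSG00000001281.9, chromosome 15, 102215995 to 102231944, − strand) encodes the beta 7 chain, which pairs with alpha E and with alpha 4, the latter pair binding MAdCAM-1 on gut venules. It lay at 18664, 19969, 18335 and 17023 normalized counts in Ndrg3ctrl and at 18255, 21123, 18564 and 16380 in Ndrg3TKO. The Ndrg3TKO libraries spanned the whole Ndrg3ctrl range, with both the highest and the lowest value. The log2 fold change was 0.0065 with an SE of 0.0761 (adjusted p = 0.987, edgeR), and the interval runs from −10.3% to 12.5%.

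LFA-1, the integrin by which T cells stick to ICAM-bearing cells and form the immunological synapse, showed the same picture. Itgal (ENSMUSG00000030830.18, chromosome 7, 127296260 to 127335138, + strand), its alpha chain, had normalized counts of 31340, 31305, 29296 and 24158 in Ndrg3ctrl and of 30117, 29336, 29396 and 25205 in Ndrg3TKO. Replicate 4 was low in both groups, and the other libraries lay between 29296 and 31340. This left a log2 fold change of −0.03 with an SE of 0.0876 (adjusted p = 0.947, edgeR), an interval from −13.7% to 11.9%.

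Itgb2 (ENSMUSG00000000290.13, chromosome 10, 77530252 to 77565708, + strand) encodes beta 2, the chain shared by the leukocyte integrins. Its values were 15096, 16342, 14936 and 12704 normalized counts in Ndrg3ctrl and 14406, 15414, 15081 and 12323 in Ndrg3TKO. The same library number was lowest in each group, as in Itgal, and the groups overlapped. For Itgb2 the log2 fold change was −0.05 with an SE of 0.0829 (adjusted p = 0.888, edgeR), an interval from −14.4% to 9.61%.

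Itga4 was the subunit with the clearest difference. It encodes alpha 4 (CD49d), which with beta 1 binds VCAM-1 and fibronectin and with beta 7 binds MAdCAM-1, and it lies at ENSMUSG00000027009.18, chromosome 2, 79255426 to 79333123 (+ strand). The normalized counts were 13626, 12498, 13494 and 13938 in Ndrg3ctrl and 15936, 14773, 14699 and 15880 in Ndrg3TKO. Each Ndrg3TKO library lay above each Ndrg3ctrl library, and the gap between the groups, from 13938 to 14699, was narrower than the range within either group. The means were 13389 ± 622 and 15322 ± 678 (SD, n = 4). This is a log2 fold change of 0.19 with an SE of 0.0553, or 14.4% with a 95% interval from 5.41 to 24.2%. The unadjusted p was 0.00336 and the adjusted p 0.142 (edgeR), so the gene did not pass the threshold, whereas with DESeq2 the adjusted p was 0.0234. With the replicate block the adjusted p was 0.00598 (edgeR). Among the libraries without Y-linked counts, the 3 of Ndrg3ctrl lay between 13494 and 13938 and the 2 of Ndrg3TKO at 15936 and 15880. Those with Y-linked counts were the lowest of each group, at 12498 in Ndrg3ctrl and at 14773 and 14699 in Ndrg3TKO. An antisense neighbour, Cerkl, shares 1124 exon bases with Itga4, and the strand setting of the counting is not given in the sources used here. Cerkl itself held 163 ± 31.1 normalized counts in Ndrg3ctrl and 156 ± 18.4 in Ndrg3TKO (adjusted p = 0.899, edgeR). These values do not show how reads in the shared bases were assigned. Itga4 lies on the same chromosome as Ndrg3, 77.6 Mb away.

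Itgb1 (ENSMUSG00000025809.15, chromosome 8, 128685654 to 128733200, + strand) encodes beta 1, the partner of alpha 4 in VLA-4 and of alpha 6 in a laminin receptor. It lay at 2964, 2932, 2704 and 2176 normalized counts in Ndrg3ctrl and at 2640, 2478, 2595 and 1994 in Ndrg3TKO. Replicate 4 was again the lowest in each group, and the 3 other Ndrg3TKO libraries lay below the 3 other Ndrg3ctrl libraries. Over all 8 libraries the groups overlapped. The log2 fold change was −0.15 with an SE of 0.109 (adjusted p = 0.668, edgeR), and its interval from −23.8% to 6.47% is among the widest of the 9. With the replicate block the adjusted p was 0.0462 (edgeR).

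Itga6 (ENSMUSG00000027111.15, chromosome 2, 71745616 to 71858416, + strand) encodes alpha 6, a laminin-binding chain present on thymocytes and progenitors. It had 3076, 2944, 2767 and 2371 normalized counts in Ndrg3ctrl and 2887, 2734, 2551 and 2411 in Ndrg3TKO. The groups overlapped over most of their ranges. For Itga6 the log2 fold change was −0.08 with an SE of 0.0785 (adjusted p = 0.778, edgeR), an interval from −15.6% to 6.67%.

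The chains of the vitronectin receptor had values on opposite sides of equality, neither past the threshold without the replicate block. Itgav (ENSMUSG00000027087.11, chromosome 2, 83724397 to 83806916, + strand) encodes alpha V, which binds RGD-bearing proteins and can release active TGF-β from its latent form. Its normalized counts were 2131, 1964, 1970 and 1850 in Ndrg3ctrl and 2268, 2225, 2083 and 2084 in Ndrg3TKO. Ndrg3ctrl replicate 1 lay above Ndrg3TKO replicates 3 and 4, and the other Ndrg3ctrl libraries lay below the whole Ndrg3TKO group. For Itgav the fitted log2 fold change was 0.13 with an SE of 0.0557, or 9.38% with an interval from 0.699 to 18.8% (unadjusted p = 0.0356 and adjusted p = 0.413, edgeR). Its antisense neighbour Gm13684, with 634 shared exon bases, had 0 counts in each library.

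Itgb3 (ENSMUSG00000020689.4, chromosome 11, 104608000 to 104670476, + strand) encodes beta 3, the partner of alpha V and, on platelets, of the alpha IIb chain encoded by Itga2b. It lay at 2799, 2834, 2642 and 2250 normalized counts in Ndrg3ctrl and at 2464, 2466, 2206 and 1894 in Ndrg3TKO. The Ndrg3ctrl library with the lowest value, replicate 4, fell inside the Ndrg3TKO range, and the other 3 lay above it. The log2 fold change was −0.22 with an SE of 0.0913, or −14.2% with an interval from −25.2 to −1.53% (unadjusted p = 0.0321 and adjusted p = 0.401, edgeR). With the replicate block the adjusted p was 0.0023 (edgeR). Of the 9 other platelet and megakaryocyte markers, 5 (Pf4, Ppbp, Gp1bb, Gp6 and Treml1) were at 0 in each library. The 9 summed to 6.79 to 18.5 normalized counts in Ndrg3ctrl and to 11.6 to 19.99 in Ndrg3TKO. Whether platelets add to the counts of Itgb3 was not tested. Itga2b itself held means of 68.8 and 84.3. With it the sums were 71.8 to 98.4 in Ndrg3ctrl and 90.0 to 112.8 in Ndrg3TKO.

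**Figure D2:**
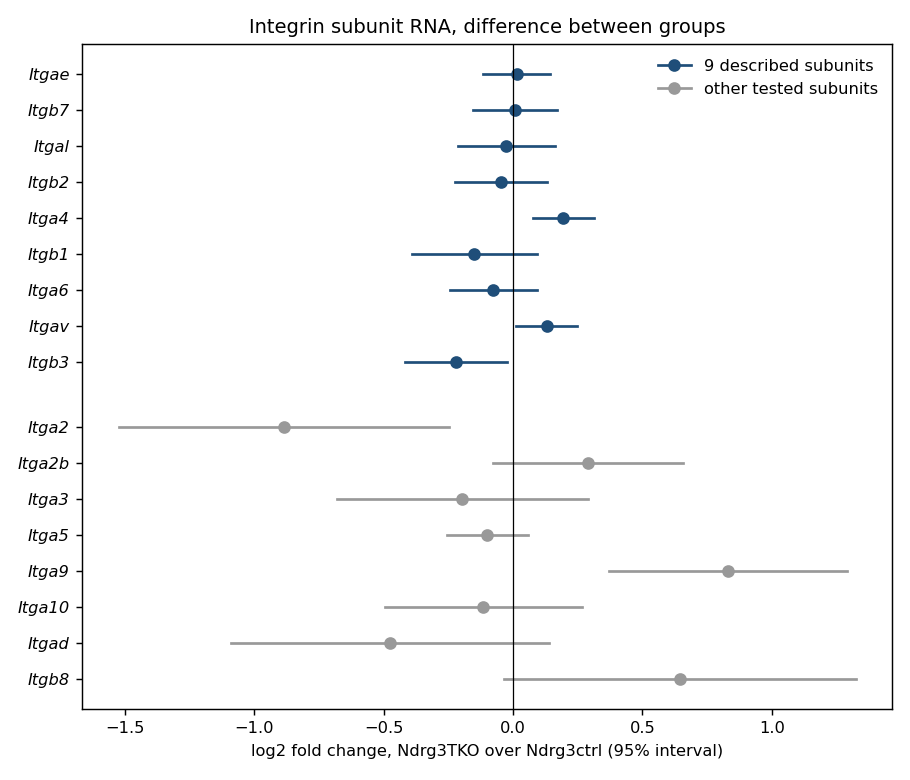
Log2 fold change of Ndrg3TKO over Ndrg3ctrl (horizontal axis) with its 95% interval (line) for the 9 subunits described here (blue) and for the 8 other integrin subunits that could be tested (grey). The intervals of Itga4 (0.08 to 0.31), Itgav (0.01 to 0.25) and Itgb3 (−0.42 to −0.02) exclude 0 before adjustment, as do those of the low-count Itga9 and Itga2. In edgeR without covariates, 0 of the 17 passed after adjustment.

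Levels of different genes were compared per length, as CPM (counts scaled to library size) per kilobase of annotated exon. In Ndrg3ctrl, Itgb7 was highest at 231 ± 15.1 (SD, n = 4), followed by Itgae at 187 ± 8.88, Itgb2 at 167 ± 17.1 and Itgal at 153 ± 17.8. By mean level over the libraries of both groups, their RNAs ranked 118, 163, 199 and 222 among the tested genes. The ranges of Itgae and Itgb2 and those of Itgb2 and Itgal overlapped, so these neighbours in the order could not be separated.

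A step followed below these 4 chains. Itga4 lay at 33.1 ± 1.54, Itgb1 at 22.8 ± 3.08, Itgb3 at 15.4 ± 1.57, Itga6 at 10.7 ± 1.17 and Itgav at 6.36 ± 0.371, each with a range apart from its neighbours in Ndrg3ctrl. The levels depend on the length used. With the longest coding transcript in place of all exons, Itgal (192) came before Itgb2 (172) and Itga6 (22.4) before Itgb3 (15.7), and the split between the 4 high and the 5 low chains was the same.

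**Figure D3:**
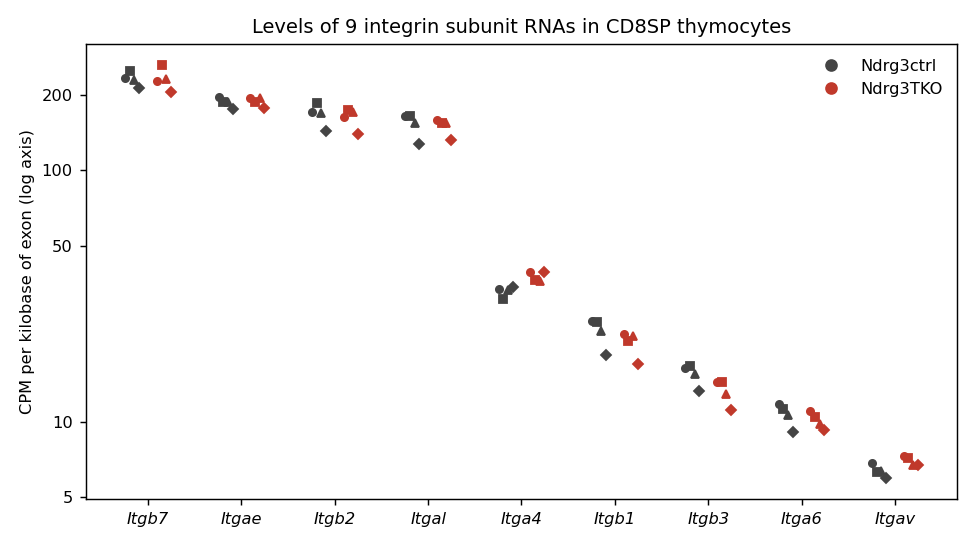
RNA level of each subunit in CPM per kilobase of exon (log axis), with 1 point per library, Ndrg3ctrl in grey and Ndrg3TKO in red, and replicates 1 to 4 from left to right within a group. Itgb7, Itgae, Itgb2 and Itgal had Ndrg3ctrl means of 153 to 231 and the other 5 means of 6.36 to 33.1.

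Because an alpha chain needs a beta partner, the ratio of their RNA levels per kilobase was taken within each library for 7 known heterodimers. These ratios describe RNA, not surface protein, and were not tested. Itgae stood at 0.810 ± 0.0422 of Itgb7 in Ndrg3ctrl and at 0.818 ± 0.0723 in Ndrg3TKO. Itgal stood at 0.912 ± 0.0368 of Itgb2 and at 0.928 ± 0.0399. For both pairs, alpha and beta RNA thus lay near equality in each group, and with the longest coding transcript the ratios in Ndrg3ctrl were 0.935 and 1.12.

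Alpha 4 RNA was the smaller partner of beta 7 and the larger partner of beta 1. The ratio of Itga4 to Itgb7 was 0.144 ± 0.0157 in Ndrg3ctrl and 0.165 ± 0.0228 in Ndrg3TKO. That of Itga4 to Itgb1 was 1.48 ± 0.275 and 1.87 ± 0.307, a difference of 0.34 on the log2 scale, with ranges of 1.24 to 1.87 and 1.65 to 2.33 that overlapped. The remaining beta 1 pairs also overlapped, with Itga6 to Itgb1 at 0.470 ± 0.0166 and 0.496 ± 0.0418 and Itgav to Itgb1 at 0.282 ± 0.0291 and 0.342 ± 0.0393. The first of these depends on the length used, since with the longest coding transcript Itga6 to Itgb1 stood at 0.919 and 0.971.

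The ratio of Itgav to Itgb3 was the only 1 of the 7 whose libraries did not overlap between the groups. The share of such separations among ratios of other genes was not taken. This ratio joins Itgav, which lay higher (unadjusted p = 0.0356, edgeR), and Itgb3, which lay lower (unadjusted p = 0.0321, edgeR). It was 0.418, 0.381, 0.410 and 0.452 in Ndrg3ctrl and 0.505, 0.496, 0.519 and 0.604 in Ndrg3TKO, with means of 0.415 ± 0.0292 and 0.531 ± 0.0498 and a difference of 0.35 on the log2 scale. Replicate 4, low in both chains, held the highest ratio in each group. With the longest coding transcript the means were 0.620 in Ndrg3ctrl and 0.793 in Ndrg3TKO.

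**Figure D4:**
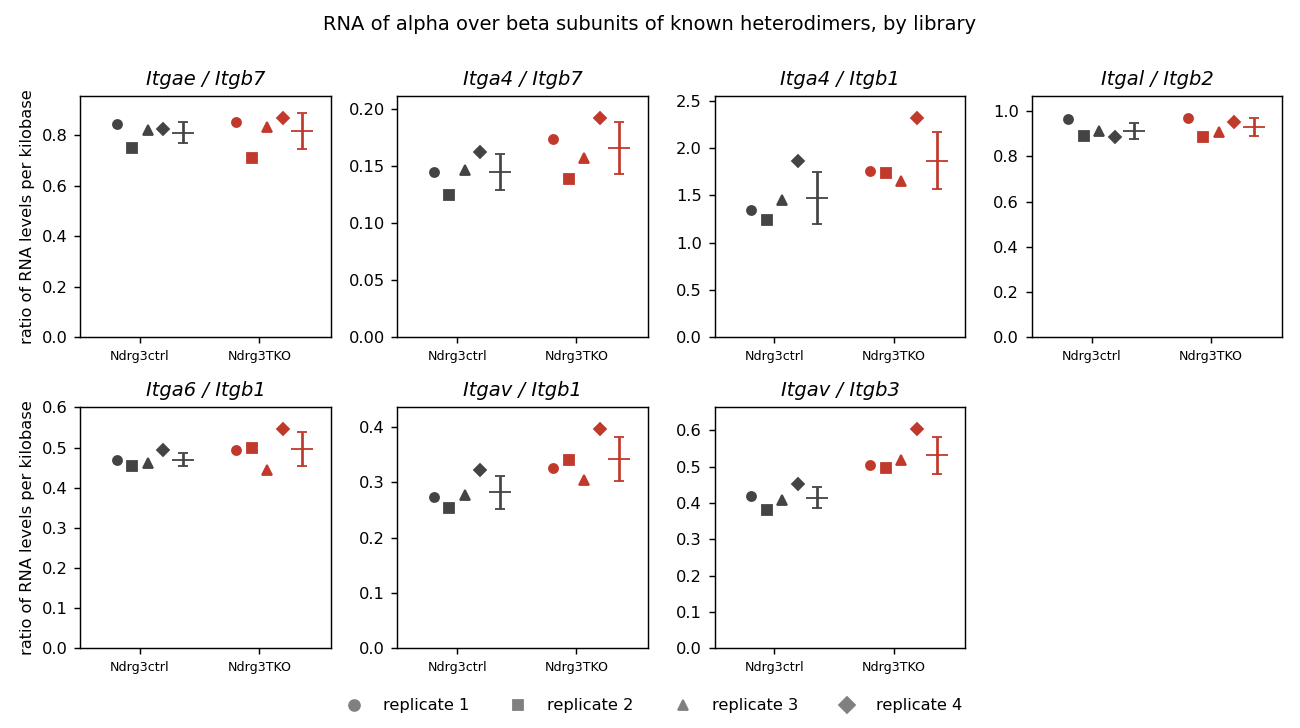
Ratio of alpha to beta subunit RNA per kilobase of exon (vertical axes, from 0) in each library for 7 known heterodimers, with marker shapes for replicate numbers and the mean with SD beside the points. The groups do not overlap in the Itgav to Itgb3 ratio, at 0.381 to 0.452 in Ndrg3ctrl and 0.496 to 0.604 in Ndrg3TKO, which was not tested. The Itgae to Itgb7 and Itgal to Itgb2 ratios are alike in both.

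The other 18 integrin subunit genes were at low levels. Of these, 8 could be tested and 0 passed the threshold (1.15% of all tested genes), with 2 at an unadjusted p under 0.05 (10.9% of all, edgeR), while with DESeq2 1 passed, Itga9 (1.93% of all). The most abundant of them, Itga5, the alpha chain of the fibronectin receptor, had 770 ± 51.4 normalized counts in Ndrg3ctrl and 719 ± 44.2 in Ndrg3TKO, a log2 fold change of −0.10 (adjusted p = 0.667). The remaining 7 had means under 100 normalized counts in both groups.

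Itga9, a chain closely related to alpha 4, had 35.9, 45.5, 35.3 and 26.5 normalized counts in Ndrg3ctrl and 78.7, 49.1, 61.9 and 63.1 in Ndrg3TKO. The groups did not overlap, and the log2 fold change was 0.83 with an SE of 0.215 and an interval from 0.37 to 1.29 (adjusted p = 0.0965, edgeR, and 0.0487 with DESeq2). Without a filter on low counts its adjusted p was 0.0464 (edgeR). Itga2, a collagen-binding chain, had values of 18.5 to 27.5 in Ndrg3ctrl and 7.27 to 14.5 in Ndrg3TKO that did not overlap, with a log2 fold change of −0.88 and an interval from −1.52 to −0.25 (adjusted p = 0.247, edgeR). These values rest on 8 to 82 reads per library.

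The other 5 tested subunits overlapped between the groups. Their log2 fold changes were 0.29 for Itga2b, −0.20 for Itga3, −0.12 for Itga10, −0.47 for Itgad and 0.65 for Itgb8, with adjusted p-values of 0.485 to 0.865 (edgeR). The remaining 10 fell under the filter on low counts. Among these, Itgam and Itgax, the alpha chains of myeloid cells, held means of 6.94 and 12.6 normalized counts in Ndrg3ctrl and of 7.69 and 6.07 in Ndrg3TKO, and Itgb2l was at 0 in each library.

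Of 30 genes that activate integrins or link them to the cytoskeleton, 25 could be tested, and 0 passed the threshold by edgeR (1.15% of all genes), with 2 at an unadjusted p under 0.05, against 10.9% of all genes. With DESeq2 1 passed, against 1.93%. Their median log2 fold change was −4.21e-05. The most abundant per kilobase were Rasgrp1, an exchange factor upstream of Rap1 and Ras (128 in Ndrg3ctrl and 119 in Ndrg3TKO), the talin gene Tln1 (122 and 121) and the kinase gene Stk4, which acts with Rap1 in T cell adhesion (107 and 110). Their log2 fold changes were −0.11, −0.01 and 0.03 (adjusted p = 0.468, 0.987 and 0.888, edgeR).

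Of 15 genes that restrain integrins, 12 could be tested. Among these 2 fell, both encoding GTPase-activating proteins of Rap1, against 0.355% of all tested genes that fell. The list was chosen with earlier results of these data known, so this count is a description only. The median log2 fold change of the 12 was −0.08. Rasa3, which switches off Rap1 and Ras at the membrane, had 13008, 12799, 12043 and 13243 normalized counts in Ndrg3ctrl and 10529, 10496, 10822 and 10574 in Ndrg3TKO. All Ndrg3TKO libraries lay below all Ndrg3ctrl libraries, and the log2 fold change was −0.27 with an SE of 0.0495 (adjusted p = 0.0147, edgeR). Rap1gap2 had 549, 596, 507 and 646 normalized counts in Ndrg3ctrl and 362, 458, 406 and 350.1 in Ndrg3TKO. It fell by 0.54 on the log2 scale, with an SE of 0.102 and an interval from −0.76 to −0.32 (adjusted p = 0.0172, edgeR).

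The most abundant of the other restraining genes were Flna (162 per kilobase in Ndrg3ctrl and 159 in Ndrg3TKO), encoding filamin, which competes with talin for beta chain tails, the Rap1 GTPase-activating protein gene Sipa1 (74.3 and 72.1) and Cytip (58.3 and 54.4), whose product limits LFA-1 adhesion. Their log2 fold changes were −0.02, −0.04 and −0.10 (adjusted p = 0.955, 0.822 and 0.562, edgeR). The count of 2 depended on which library was left out. It was 2 without Ndrg3ctrl replicates 2 or 3 or Ndrg3TKO replicate 2, 1 without Ndrg3ctrl replicate 1 or Ndrg3TKO replicate 3, and 0 without Ndrg3ctrl replicate 4, Ndrg3TKO replicate 1 or Ndrg3TKO replicate 4.

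Of 20 integrin ligands, 9 could be tested and 1 rose, Icam5, against 0.793% of all tested genes that rose. This list too was chosen with earlier results of these data known. Icam5, an LFA-1 ligand best known from neurons, had 30.1, 37.0, 17.6 and 28.6 normalized counts in Ndrg3ctrl and 61.4, 63.6, 65.7 and 51.5 in Ndrg3TKO. The groups did not overlap, and the log2 fold change was 1.11 with an SE of 0.224 (adjusted p = 0.0267, edgeR). The call is from 18 to 70 reads per library and was lost without any single one of Ndrg3ctrl replicates 1, 3 and 4 or Ndrg3TKO replicates 1, 2 and 3.

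The ligands of highest level were surface or secreted proteins that T cells make in amount. Thy1, which beta 3 and beta 2 integrins can bind, lay at 282 per kilobase in Ndrg3ctrl and 319 in Ndrg3TKO, Cd47, a partner of alpha V beta 3, at 70.9 and 75.9, and Tgfb1 at 45.2 and 46.2. Their log2 fold changes were 0.17, 0.10 and 0.03 (adjusted p = 0.295, 0.636 and 0.865, edgeR). The median over the 9 was 0.11, beside −0.0033 over all tested genes.

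**Figure D5:**
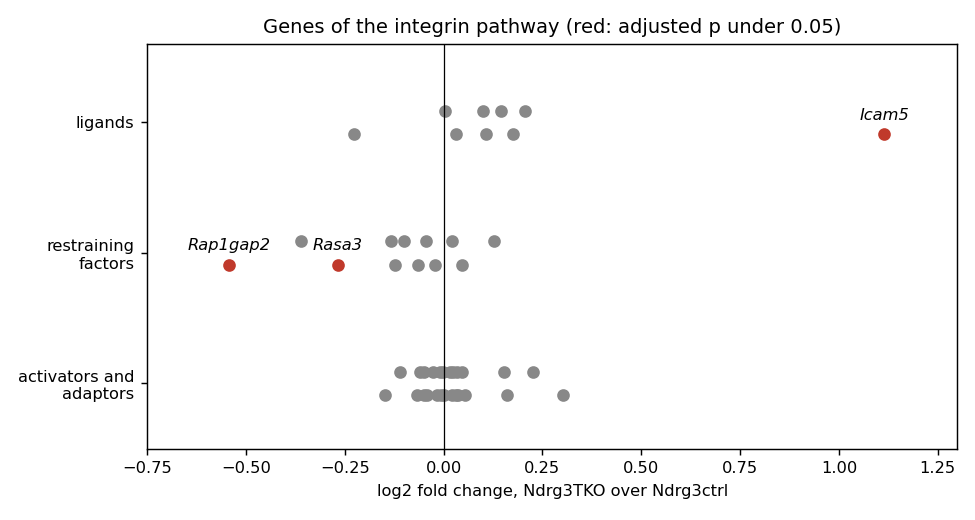
Log2 fold change of Ndrg3TKO over Ndrg3ctrl (horizontal axis) for each tested gene of 3 lists: 25 activators and adaptors, 12 restraining factors and 9 ligands, with genes at an adjusted p under 0.05 in red. Rap1gap2 (−0.54) and Rasa3 (−0.27) are the red points among the restraining factors and Icam5 (1.11) that among the ligands, while the activators hold none.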

How the data were processed

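Total RNA of sorted CD8SP TCRβ+MHC1high thymocytes from 4 Ndrg3ctrl and 4 Ndrg3TKO mice was made into libraries with a stranded, ribosomal RNA-depleting kit. Per the labels and the study's methods, the authors used snakePipes, with cutadapt for trimming, STAR for alignment to GRCm38.p4 and featureCounts for counting on GENCODE M9 genes. The deposited values are raw, whole-number counts for 47937 genes. The settings for strand and for reads with several matches are not given in the sources used here. How reads in exons that overlap antisense genes were assigned is therefore not known. Groups and replicate numbers came from the sample titles.

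Symbols, coordinates and exon lengths came from GENCODE M21 (GRCm38), which matched 98.7% of the genes by identifier. Genes passing filterByExpr, 14633 in all, were scaled by TMM and compared without covariates in edgeR 4.0.16 (glmQLFit, robust, and glmQLFTest, R 4.3.3), with Benjamini-Hochberg adjustment over all of them and a threshold of 0.05. The standard error was taken as |log2 fold change| over the root of F. The study's methods name DESeq2, which was run as an alternative (version 1.42.0). A floor of 3 counts corresponds to 0.0918 to 0.142 CPM and covers counting error only, as PCR copies could not be told from separate molecules. The fitting steps were tested on simulated data.

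Genes were named by rule: the 9 subunits, each other testable integrin subunit, and in each pathway list those past the threshold and otherwise the 3 of highest level per length. Further genes named as markers or neighbours were chosen after their values were seen. The 9 subunits, the pathway lists and the marker lists were chosen with earlier results of these data known.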

Additional observations from a re-analysis of the deposited data

Results flagged for a closer look

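Within groups of 4 libraries, the normalized counts of each of the 9 subunits were searched for a library that stood apart. Of the 18 groups, 1 held such a library. Ndrg3TKO replicate 4 had 25205 normalized counts of Itgal, and its gap to the next library made up 0.841 of the group's whole range, above Dixon's critical value of 0.829 for 4 samples. Chance alone marks about 1 in 20 groups, or 0.9 of 18. Ndrg3ctrl replicate 4 was also the lowest of its group in Itgal, at 24158.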

How the results depend on the processing

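Over 17 other settings, Itga4 and Itgav stayed above 0 and Itgb1, Itga6 and Itgb3 below 0. The scalings tried (RLE, upper quartile and library total) and a minimum of 10 counts in each library left 0 of the 9 subunits past the threshold. With DESeq2, 1 subunit and 309 of all genes passed, with Itga4 at a log2 fold change of 0.19; without a filter on low counts 274 genes passed. The adjusted p of Itga4 ranged from 0.00598 to 0.404 over all settings and that of Itga9 from 0.0284 to 0.432. Leaving out 1 library at a time gave 90 to 158 genes, 0 of 9 subunits, and log2 fold changes of −0.0173 to 0.0409 for Itgae, −0.0608 to 0.0624 for Itgb7, −0.105 to 0.0291 for Itgal, −0.113 to 0.0192 for Itgb2 and −0.206 to 0.0113 for Itga10, whose directions are thus not fixed. For Itgb1 they ran from −0.24 to −0.07, for Itga6 from −0.15 to −0.02 and for Itgb3 from −0.29 to −0.15. In settings chosen after seeing the data, 69 genes passed without replicate 4 of both groups, and Itgb7 was at −0.0232 without replicate 2 of both. The replicate numbers are shared by the groups. Same-numbered libraries correlated at 0.181, 0.415, −0.055 and 0.301 across genes in their deviations from the group means. The mean was 0.211, against −0.0687 for libraries of different number. Not every pair lay above 0.1, and the main model did not take the numbers as pairs. Its SEs therefore hold any effect that same-numbered libraries share. In 3 of 4 Ndrg3ctrl and 3 of 4 Ndrg3TKO libraries the best correlation was with the own number, a hint from the data, since no label says what the numbers mark. With the replicate block, 800 genes (5.47%) and 3 of the 9 subunits passed, Itga4 at 0.19 (adjusted p = 0.00598, edgeR), Itgb1 at −0.15 (0.0462) and Itgb3 at −0.22 (0.0023). Apart from what these alternatives change by construction, the cause of the differences between settings was not tested. Itga9 and Itga2 rest on 8 to 82 reads per library; Itga9 passed with DESeq2, without the filter, with the block and without replicate 2 of both groups.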

Other observations

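Markers of other cells of the thymus were low or at sums that overlapped between the groups, though the myeloid and dendritic sums met only between 569 and 571. The median log2 fold change of the 4 tested myeloid and dendritic markers was −0.26. That of the 3 tested thymic epithelial and endothelial markers was −0.44, with a range of −0.64 to −0.09. Medians were −0.12 for CD4 and immature thymocyte, −0.02 for NK and NKT cell and −0.19 for B cell markers. Gamma delta T cell markers had a median of 0.07 and a range of −0.56 to 1.49. Each list below except the erythroid held 1 tested gene whose groups did not overlap, against 7.04% of all tested genes. The tested genes per list were 5, 4, 5, 4, 2 and 3, in the order below. Those of CD4 and immature thymocytes summed to 1985 to 2231 normalized counts in Ndrg3ctrl and 2035 to 2380 in Ndrg3TKO, gamma delta T cell markers to 448 to 559 and 489 to 714, NK and NKT cell markers to 2104 to 2608 and 2339 to 2699, myeloid and dendritic cell markers to 569 to 705 and 506 to 571, B cell markers to 7303 to 8722 and 7567 to 9021, thymic epithelial and endothelial markers to 4512 to 5200 and 4287 to 4728, and erythroid markers to 0.970 to 4.27 and 0.889 to 6.71. The large sums came mostly from Ighm for the B cell list and from Pecam1 for the epithelial and endothelial list. T cells also express both genes, and the cells of origin were not tested. Of the 5 B cell markers, 2 could be tested, with log2 fold changes of −0.43 and 0.06 (edgeR), and 1 was at 0 in each library. Among all these lists 1 gene passed the threshold, Klrb1c, which rose from 8.83 to 51.4 normalized counts (log2 fold change 2.62, adjusted p = 0.00149, edgeR). Of the 8 NK and NKT cell markers, 5 could be tested, with log2 fold changes of −0.08 to 2.62, and 1 was at 0 in each library.

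Itga4, Itga6 and Itgav lie on chromosome 2 with the targeted gene, at distances of 77.6, 85.1 and 73.1 Mb from Ndrg3.

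In the list of activators, 2 genes separated the groups without passing the threshold by edgeR. Apbb1ip, which encodes RIAM, the Rap1 effector that brings talin to integrins, had 7109, 6992, 7262 and 7066 normalized counts in Ndrg3ctrl and 8403, 7726, 7776 and 7890 in Ndrg3TKO (log2 fold change 0.16, adjusted p = 0.154, edgeR). Rasgrp1 had 20495, 20975, 20154 and 21303 in Ndrg3ctrl and 19633, 19131, 19399 and 18665 in Ndrg3TKO (adjusted p = 0.468). Both were chosen for mention after their values were seen, and such a separation was found in 7.04% of all tested genes.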
